A study of Homo sapiens with 12 samples.

Results

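The components of the PI3K, AKT and mTOR pathway examined here were 46 genes, taken by symbol from 60617 genes in the count tables. They are the kinases, regulatory subunits, phosphatases, complex members, substrates and transcription factors that carry the insulin signal inside the cell. All 46 were among the 23041 genes tested, those with an average of 1 or more counts over the 12 libraries. mRNA-seq was done on 12Z, an immortalized line of human epithelial cells from endometriosis, in 4 groups with 3 libraries each, from independent experiments. Control cells received pCAG empty vector and vehicle, Insulin cells pCAG empty vector and 100 nM insulin, Viperin cells a pCAG Viperin plasmid and vehicle, and Viperin + Insulin cells the Viperin plasmid and 100 nM insulin. Viperin, encoded by RSAD2, is an interferon-induced antiviral enzyme. All groups were transfected with a plasmid, were kept without serum for 4 h before treatment and were collected 24 h after it, so the plasmid was carried transiently and all cells are of 1 line. One protocol names the empty vector as pBabe and the group labels name it as pCAG. The methods do not say whether these cells also received a non-targeting siRNA.

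In the insulin pathway, class I PI3K enzymes pair a catalytic p110 subunit with a regulatory p85 or p55 subunit and make the membrane lipid PIP3, which brings the kinases PDK1 and AKT together. AKT holds FOXO transcription factors out of the nucleus, inhibits GSK3 and, by way of the TSC complex and RHEB, allows mTORC1 to act. mTORC1 promotes protein and lipid synthesis and is also controlled by amino acids through Rag GTPases, and mTORC2 phosphorylates AKT. Most of this control acts on proteins and lipids, and the libraries measured only mRNA.

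The libraries held 25979022 to 46889002 assigned read pairs (median 35422382). RSAD2 stood at 384 to 665 CPM (counts relative to the TMM-scaled library size) in the 6 libraries with the Viperin plasmid and at 2.28 to 5.19 CPM in the 6 with empty vector, so the plasmid labels matched the target. Of 10 epithelial markers, 8 had a median over 1 CPM, led by KRT8 at a median of 1307 CPM, while EPCAM (0.472 CPM) and CDH1 (1.18 CPM) were low. All 10 stromal markers had a median over 1 CPM, and COL1A1 had a median of 1417 CPM. Control library 1 and Viperin library 3 stood apart by their share of reads that mapped to more than 1 place, 13.9% and 12.1%, and calls that were lost without either library are also given without both.

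The 46 members spanned a wide range of expression (per kb of the canonical transcript, averaged over 12 libraries). EIF4EBP1, the mTORC1 substrate that restrains cap-dependent translation, was highest at 76.0 CPM per kb. SGK1, a kinase related to AKT, followed at 66.0 CPM per kb, ahead of AKT1S1 (PRAS40, an mTORC1 inhibitor) at 52.7, RHEB (the GTPase that activates mTORC1) at 50.3 and AKT1 at 46.1 CPM per kb. Per kb, AKT1 was above AKT2 in all libraries, with ranges of 42.6 to 50.5 and 34.7 to 37.5 CPM per kb. Before division by length the order was the reverse, at 126 to 149 CPM for AKT1 and 182 to 197 CPM for AKT2. The order per kb therefore rests on the lengths of the canonical transcripts, 2957 and 5250 bases. The catalytic subunits were closer to each other, at 10.6 CPM per kb for PIK3CB, 9.97 for PIK3CD and 9.70 for PIK3CA, and their ranges overlapped. A pseudogene elsewhere in the genome (KCNMB3P1, 0 to 1 counts) shares 13.5% of the 50-base words of PIK3CA. RHEB shares sequence with the pseudogenes RHEBP1 (0 to 5 counts) and RHEBP2 (16 to 45 counts). Reads that map to more than 1 place were not counted, so PIK3CA and RHEB may be understated and their ranks are uncertain. Of the regulatory subunits, PIK3R3 (10.4 CPM per kb) was above PIK3R1 (4.90 CPM per kb). FOXO3 (9.09 CPM per kb) and FOXO4 (7.37 CPM per kb) were well above FOXO1 (0.866 CPM per kb). PIK3R2 was lowest, at 0.186 CPM per kb and 16 to 38 counts per library. An overlapping read-through gene (ENSG00000268173, 0 to 4 counts) holds 99.1% of its 50-base words, and STAR gives reads in exons of more than 1 gene to neither, so its value cannot be read as its mRNA level. DEPTOR, an mTOR inhibitor (1.5 CPM per kb), and RRAGD, a Rag GTPase (0.593 CPM per kb), were also low.

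**Figure D1:**
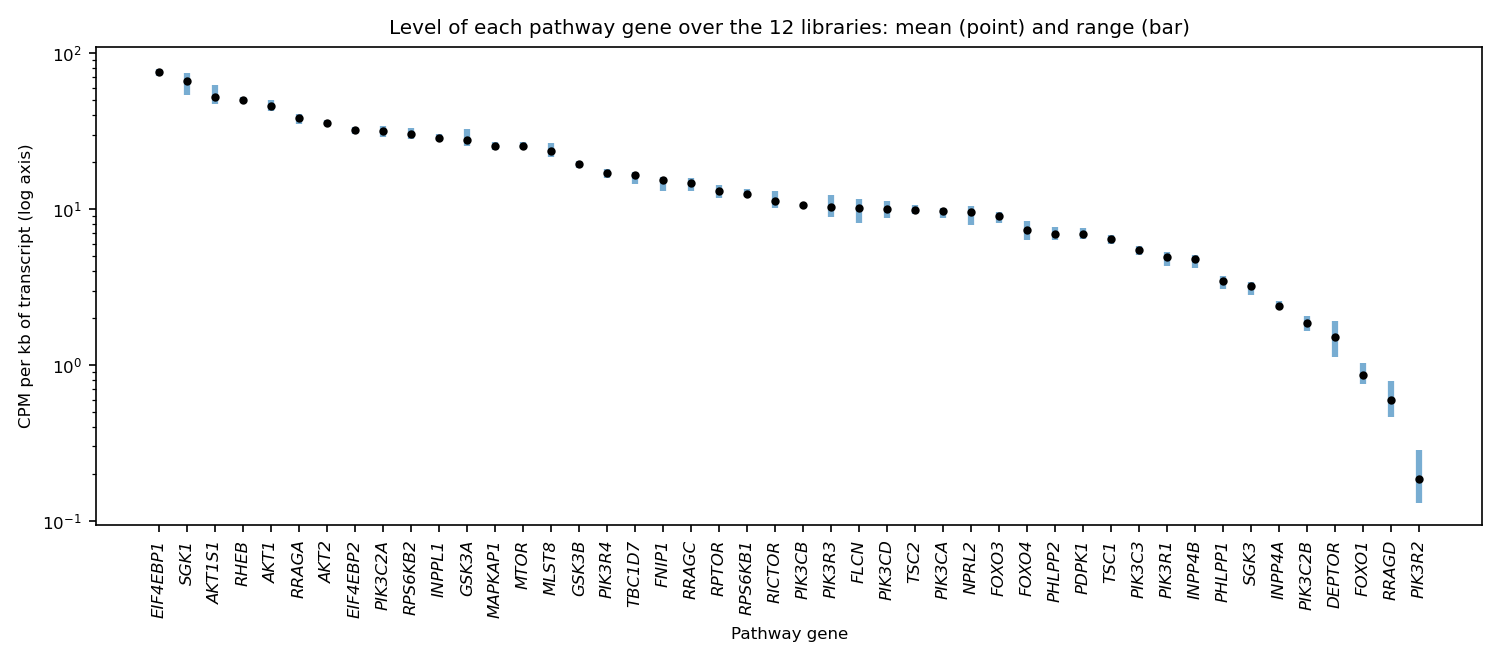
Level of each of the 46 pathway genes in CPM per kb of canonical transcript (log axis), in falling order, with points for the mean and bars for the range over 12 libraries. EIF4EBP1 is at 76.0 and PIK3R2 at 0.186 CPM per kb, and most bars are short beside the distance between genes.

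Insulin changed few of these mRNAs, and by small amounts. Averaged over both plasmids, PIK3R3 and PHLPP2 rose and FOXO4, RICTOR and TSC2 fell, so 5 of 46 members passed an adjusted p under 0.05, against 11.7% of all genes tested. Adjusted p-values here are from edgeR's quasi-likelihood test with Benjamini-Hochberg adjustment over all 23041 genes. Among the 13662 genes at or above the mean CPM of the lowest member, 19.3% passed. The members' share was therefore not above that of all genes. The median log2 fold change was -0.0074 for the members and -0.0018 for all genes. At an adjusted p under 0.001, 3 members passed in the average (PIK3R3, FOXO4 and RICTOR, 3.92% of all genes), 2 in Insulin vs. Control (1.18% of all genes) and 1 in Viperin + Insulin vs. Viperin (1.11% of all genes). At 0.05, 5 members passed in Insulin vs. Control (5.49% of all genes), and in Viperin + Insulin vs. Viperin 3 passed (4.56% of all genes). PIK3R3, FOXO4 and RICTOR were the 3 that passed in both. With 1 library left out the count in the average was 4 to 8, with 8 without Control library 1 or Control library 3. In Insulin vs. Control it was 2 without Insulin library 2 and 3 when either Control 1, Control 2, Insulin 1 or Insulin 3 was left out, and in Viperin + Insulin vs. Viperin it was 1 without Viperin library 2 or Viperin + Insulin library 1 or 2.

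PIK3R3, the p55γ regulatory subunit of class I PI3K (chr1:46040140-46133036, minus strand), stood at 51.4, 54.6 and 50.2 CPM in the Control libraries and at 69.1, 61.0 and 62.2 CPM in the Insulin libraries. With the Viperin plasmid it stood at 50.7, 52.6 and 51.8 CPM with vehicle and at 66.0, 62.9 and 63.1 CPM with insulin. All 6 insulin libraries lay above all 6 vehicle libraries. It rose 1.23-fold in the average (log2 fold change 0.30, SE 0.03, adjusted p = 5.47e-11), by 0.30 in Insulin vs. Control (adjusted p = 5.71e-06) and by 0.31 in Viperin + Insulin vs. Viperin (adjusted p = 1.96e-06). No other member passed an adjusted p under 0.001 in both plasmids. A read-through gene shares 22.4% of its 50-base words and had 0 counts, so read pairs in shared exons are missing from its level. The other regulatory subunits did not pass. PIK3R1, the main p85 and p55 gene, had a log2 fold change of 0.07 (95% interval -0.01 to 0.15), and PIK3R4, the partner of the class III kinase, one of -0.05 (-0.10 to 0.01). PIK3R2, on its few reads, had the widest interval (-0.39, from -0.78 to -0.0039, adjusted p = 0.216).

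The catalytic subunits did not pass. PIK3CA, the p110α gene, stood at 88.9, 93.0 and 93.8 CPM in Control and at 87.7, 91.0 and 92.1 CPM in Insulin libraries, which overlapped. Its log2 fold change in the average was -0.05 (95% interval -0.11 to 0.0064, adjusted p = 0.299). That of PIK3CB was -0.0083 (-0.07 to 0.05), and that of PIK3CD, the p110δ gene, -0.08 (-0.15 to -0.0091, adjusted p = 0.149). The class II and III kinases and the lipid phosphatases INPP4A, INPP4B and INPPL1 did not pass either.

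Of PDK1, AKT and the AKT phosphatases, only PHLPP2 passed. PHLPP2, a phosphatase that removes a phosphate from AKT (chr16:71637835-71724701, minus strand), stood at 52.6, 53.7 and 53.6 CPM in Control and at 59.1, 58.3 and 60.2 CPM in Insulin libraries. It stood at 59.8, 53.9 and 55.7 CPM in Viperin and at 58.4, 61.0 and 63.9 CPM in Viperin + Insulin libraries. The groups were apart with empty vector and overlapped with the Viperin plasmid. It rose by 0.13 in the average (SE 0.03, adjusted p = 0.00254) and by 0.15 in Insulin vs. Control (adjusted p = 0.0382). The latter call was lost when any 1 of the 6 libraries compared was left out (adjusted p up to 0.175) without Control library 1 and Viperin library 3 (adjusted p = 0.053) and with limma-voom (adjusted p = 0.07). In Viperin + Insulin vs. Viperin its log2 fold change was 0.11 (adjusted p = 0.166). AKT1 and AKT2 had log2 fold changes of -0.03 (-0.09 to 0.02) and -0.02 (-0.07 to 0.04) in the average, and PHLPP1 one of -0.09 (-0.18 to 0.0018).

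TSC2, the subunit of the TSC complex that switches off RHEB (chr16:2047967-2089491, plus strand), stood at 64.1, 64.6 and 64.1 CPM in Control and at 61.0, 59.8 and 61.2 CPM in Insulin libraries. It stood at 64.3, 65.8 and 68.3 CPM in Viperin and at 62.3, 61.5 and 61.6 CPM in Viperin + Insulin libraries. All 6 insulin libraries lay below all 6 vehicle libraries, by a small amount. TSC2 fell by 0.09 in the average (SE 0.03, adjusted p = 0.0405). The call was lost without any 1 of 9 libraries (Control 2, Viperin 2 or 3, or any library with insulin), with adjusted p up to 0.109, without Control library 1 and Viperin library 3 (adjusted p = 0.117) and with no filter on low counts (adjusted p = 0.0788). TSC1, TBC1D7 and RHEB did not pass.

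RICTOR, the subunit that defines mTORC2 (chr5:38937920-39074402, minus strand), was the one subunit of the mTOR complexes that passed. It stood at 124, 111 and 114 CPM in Control and at 105, 99.9 and 103 CPM in Insulin libraries. In Viperin libraries it stood at 121, 112 and 103 CPM and in Viperin + Insulin libraries at 96.7, 102 and 102 CPM. Insulin libraries were below vehicle libraries within each plasmid, while Viperin library 3 lay below the 2 highest Insulin libraries. RICTOR fell by 0.17 in the average (SE 0.03, adjusted p = 8.59e-05), by 0.18 in Insulin vs. Control (adjusted p = 0.00712) and by 0.16 in Viperin + Insulin vs. Viperin (adjusted p = 0.025). The call in Insulin vs. Control was lost without Control library 1 (adjusted p = 0.0549) or Insulin library 2 (adjusted p = 0.075), and stood without Control library 1 and Viperin library 3 (-0.13, adjusted p = 0.0376). The call in Viperin + Insulin vs. Viperin was lost without Viperin library 1 (log2 fold change -0.10, adjusted p = 0.285), Viperin library 2 (adjusted p = 0.0959), or Viperin + Insulin library 1 (adjusted p = 0.18) or 2 (adjusted p = 0.0528). MTOR, the kinase itself, stood at 213, 213 and 224 CPM in Control and at 219, 221 and 224 CPM in Insulin libraries, which overlapped, and had a log2 fold change of 0.04 in the average (95% interval -0.01 to 0.09). RPTOR, which defines mTORC1, had one of 0.08 (0.02 to 0.13, adjusted p = 0.0959), and DEPTOR one of -0.25 (-0.46 to -0.04, adjusted p = 0.118). The mTORC1 substrates RPS6KB1, RPS6KB2, EIF4EBP1 and EIF4EBP2 did not pass, nor did GSK3A and GSK3B.

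FOXO4, a FOXO transcription factor that AKT inhibits (chrX:71095851-71103532, plus strand), had the largest fall of the members that passed. It stood at 28.9, 29.9 and 29.4 CPM in Control and at 23.8, 24.7 and 23.0 CPM in Insulin libraries. In Viperin libraries it stood at 27.8, 30.8 and 28.1 CPM and in Viperin + Insulin libraries at 25.8, 25.2 and 25.1 CPM. All 6 insulin libraries lay below all 6 vehicle libraries. FOXO4 fell by 0.25 in the average (SE 0.04, adjusted p = 6.31e-06), by 0.30 in Insulin vs. Control (adjusted p = 2.89e-04) and by 0.19 in Viperin + Insulin vs. Viperin (adjusted p = 0.0392). The last call was lost without Viperin library 2 (adjusted p = 0.302) or any 1 Viperin + Insulin library (adjusted p = 0.0723, 0.114 and 0.147 without libraries 1, 2 and 3). FOXO1 had a log2 fold change of -0.14 (95% interval -0.31 to 0.03, adjusted p = 0.375) and FOXO3 one of -0.01 (-0.08 to 0.05, adjusted p = 0.858). FOXO3 shares 37.4% of its 50-base words with FOXO3B (130 to 293 counts). Reads that map to both places are counted for neither, so the level of FOXO3 may be understated.

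FNIP1, a folliculin partner in amino acid sensing (chr5:131641714-131797017, minus strand), passed in 1 of the insulin comparisons, Insulin vs. Control. It stood at 85.3, 92.9 and 101 CPM in Control and at 105, 104 and 103 CPM in Insulin libraries, with no overlap. In Viperin libraries it stood at 106, 105 and 99.5 CPM and in Viperin + Insulin libraries at 101, 101 and 103 CPM, which overlapped. It rose by 0.15 in Insulin vs. Control (SE 0.04, adjusted p = 0.018) and had a log2 fold change of -0.03 in Viperin + Insulin vs. Viperin (adjusted p = 0.871). Without Control library 1, the lowest, the log2 fold change was 0.10 (adjusted p = 0.22), and the call was also lost without Control library 2 (adjusted p = 0.0513) or any Insulin library (adjusted p = 0.0627, 0.0719 and 0.0542 for libraries 1, 2 and 3). Without Control library 1 and Viperin library 3 its log2 fold change was 0.10 (adjusted p = 0.15).

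**Figure D2:**
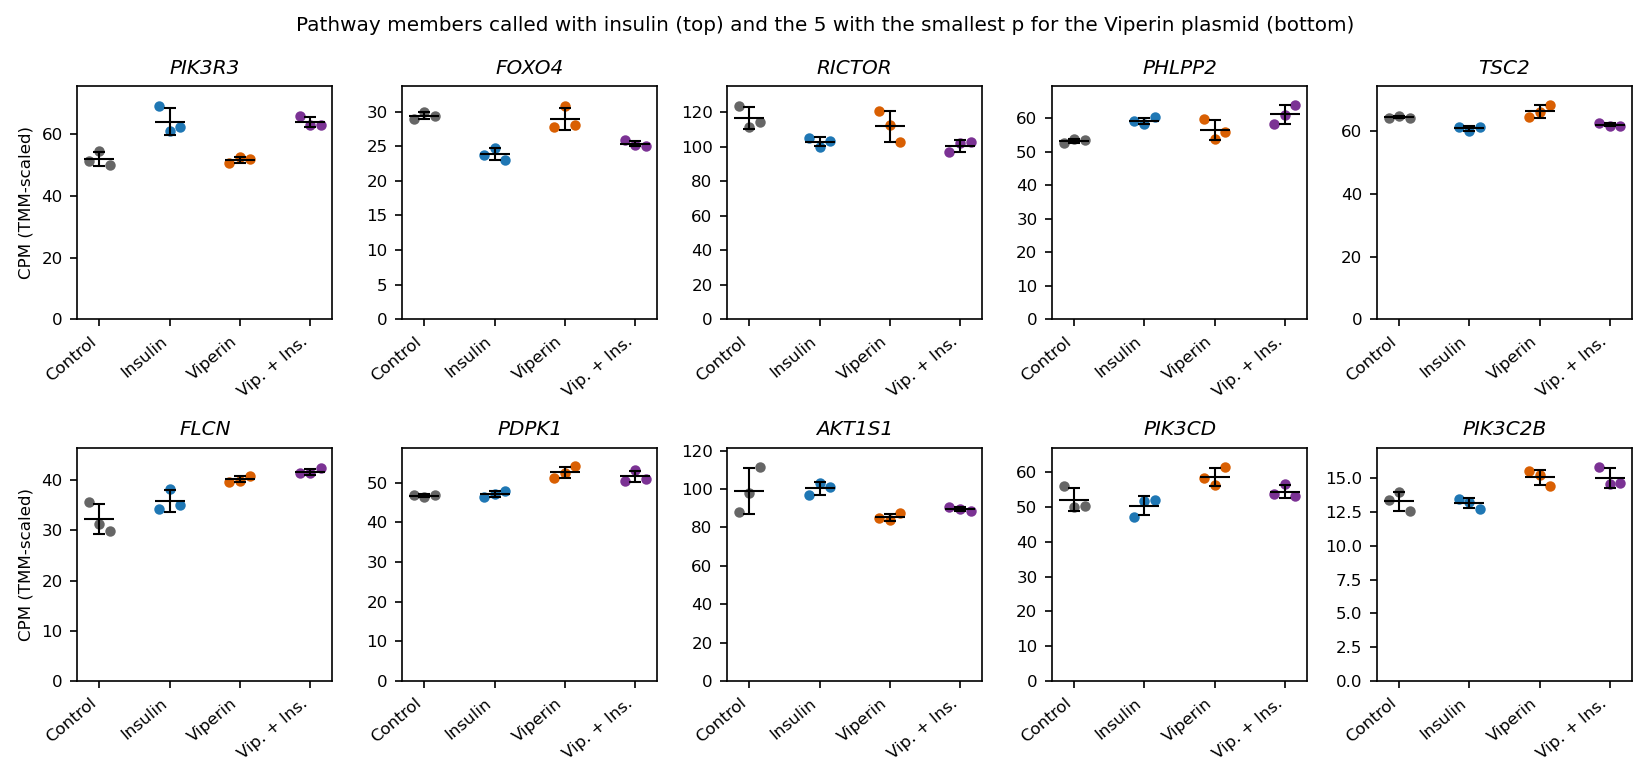
CPM per library in the 4 groups for the 5 members called with insulin in the average (top) and the 5 with the smallest p for the Viperin plasmid (bottom), with lines for the mean and bars for the SD of 3 libraries. PIK3R3 is at 61.0 to 69.1 CPM in all insulin libraries and at 50.2 to 54.6 CPM in all vehicle libraries, and FLCN is at 39.7 CPM or more in all Viperin libraries and at 38.3 CPM or less in all others.

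Across the 46 members, 3 had 6 insulin libraries that did not overlap the 6 vehicle libraries (PIK3R3, FOXO4 and TSC2), against 4.11% of all genes. For 42 of 46 members the 95% interval of the insulin effect lay within a 25% rise and a fall of the same fold, the exceptions being PIK3R2, PIK3R3, DEPTOR and FOXO4. The median SE was 0.03 on the log2 scale. Each insulin comparison within a plasmid used libraries of its own, and 31 of 46 members (67.4%) had the same sign in both, against 62.1% of all genes. These shares of all genes include many genes below the level of the lowest member, and shares among genes matched in level were not taken.

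The promoters of the 4 members with the smallest p in the insulin average are shown because these genes moved in both directions, and the forkhead motif is the kind of site that FOXO factors bind. Each run is 300 bases of the RefSeq sequence (GRCh38.p14), 5′ to 3′ on the gene's strand, from 250 bases before to 50 after the first start listed. PIK3R3, which rose, is from chr1:46132580-46132879 (minus strand), and its start is the first of 6 listed. PHLPP2, which rose, is from chr16:71724652-71724951 (minus strand). FOXO4, which fell, is from chrX:71095601-71095900 (plus strand), and RICTOR, which fell, is from chr5:39074350-39074649 (minus strand). Capitals mark a match to the forkhead motif TGTTTAC or to the E-box CACGTG, searched on both strands, and the forkhead match in FOXO4 lies on the minus strand from base 24 after the start.
PIK3R3: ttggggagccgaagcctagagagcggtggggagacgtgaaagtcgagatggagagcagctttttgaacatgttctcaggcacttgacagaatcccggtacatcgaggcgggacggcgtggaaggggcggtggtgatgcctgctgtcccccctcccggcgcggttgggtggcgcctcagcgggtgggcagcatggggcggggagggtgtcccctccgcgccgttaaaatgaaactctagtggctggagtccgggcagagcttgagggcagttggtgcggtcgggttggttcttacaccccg
PHLPP2: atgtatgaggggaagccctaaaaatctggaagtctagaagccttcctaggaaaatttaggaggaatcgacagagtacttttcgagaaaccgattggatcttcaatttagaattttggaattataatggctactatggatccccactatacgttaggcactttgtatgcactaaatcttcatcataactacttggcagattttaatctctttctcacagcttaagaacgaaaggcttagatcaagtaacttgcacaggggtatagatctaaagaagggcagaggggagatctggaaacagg
FOXO4: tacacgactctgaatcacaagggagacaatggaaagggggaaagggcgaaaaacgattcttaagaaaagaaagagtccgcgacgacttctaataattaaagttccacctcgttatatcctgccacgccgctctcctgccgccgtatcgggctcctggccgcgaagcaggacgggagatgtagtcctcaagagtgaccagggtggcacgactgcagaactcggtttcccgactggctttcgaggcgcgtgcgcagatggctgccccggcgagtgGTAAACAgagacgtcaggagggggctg
RICTOR: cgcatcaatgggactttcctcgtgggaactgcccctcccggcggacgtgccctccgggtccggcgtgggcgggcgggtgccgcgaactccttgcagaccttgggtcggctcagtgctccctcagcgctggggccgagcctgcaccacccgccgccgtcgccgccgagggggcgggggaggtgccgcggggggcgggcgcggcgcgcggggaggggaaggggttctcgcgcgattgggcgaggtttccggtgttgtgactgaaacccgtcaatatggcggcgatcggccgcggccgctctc
The motifs do not overlap each other. Of the 46 members, 39 had an entry in the promoter table. TGTTTAC was found in 2 of the 39 (5.13%), FOXO4 and PIK3CA, against 3.42% of 35116 RefSeq promoters, and CACGTG in 3 of the 39 (7.69%), TSC2, FNIP1 and RRAGC, against 7.26%. PIK3R3, PHLPP2 and RICTOR had neither motif in this window. The shares are close to those of all promoters, and a match is only a match of letters.

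The Viperin plasmid changed a minority of the 46 mRNAs by small amounts, but a larger share of them than of all genes. Averaged over vehicle and insulin, FLCN, PDPK1, PIK3CD, PIK3C2B, PIK3R4 and FOXO3 rose and AKT1S1, AKT1 and RPTOR fell, so 9 members passed, or 19.6% of 46, against 7.96% of all genes and 13.2% of the 13662 genes at or above the level of the lowest member. The lowest member was PIK3R2, at a mean of 0.739 CPM, and most members stood far above it. Neither share is therefore from genes matched in level to the members. The part of expression level in the higher share was not tested, and no test was made of the list as a whole. The median log2 fold change was 0.016 for the members and 0.0012 for all genes. In Viperin vs. Control 5 members passed (2.29% of all genes), and in Viperin + Insulin vs. Insulin 1 did (3.09% of all genes). The count in the average was 4 to 11 with 1 library left out, with 4 without Viperin library 1 and 5 without Insulin library 2, Insulin library 3 or Viperin + Insulin library 3. In Viperin vs. Control it was 1 without Control library 2, 2 when either Control 3, Insulin 3, Viperin 1 or Viperin 2 was left out, and 3 without Viperin 3. In Viperin + Insulin vs. Insulin it was 0 without Insulin library 3 or Viperin + Insulin library 3 and 2 without Control library 1 or 3. At an adjusted p under 0.001, 1 member passed in the average (FLCN, 2.05% of all genes), 1 in Viperin vs. Control (FLCN, 0.304% of all genes) and 0 in Viperin + Insulin vs. Insulin (0.473% of all genes). The summed level of the 10 stromal markers was 5445 to 5979 CPM in Control and 5627 to 5811 CPM in Insulin libraries, and 6327 to 6491 CPM in Viperin and 6201 to 6484 CPM in Viperin + Insulin libraries, so it was higher with the Viperin plasmid. Summed epithelial markers ran from 2590 to 2661, 2688 to 2862, 2452 to 2544 and 2586 to 2698 CPM in the same order. The part of these shifts in the results was not tested, and fewer cells of a kind and less RNA per cell cannot be told apart.

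FLCN, folliculin, which acts on Rag GTPases at the lysosome (chr17:17212212-17237188, minus strand), had the largest change. It stood at 35.7, 31.2 and 29.8 CPM in Control and at 39.7, 39.9 and 40.9 CPM in Viperin libraries. With insulin it stood at 34.2, 38.3 and 35.1 CPM with empty vector and at 41.3, 41.4 and 42.4 CPM with the Viperin plasmid. All 6 Viperin libraries lay above all 6 empty vector libraries. FLCN rose 1.2-fold in the average (log2 fold change 0.27, SE 0.04, adjusted p = 7.29e-07), by 0.32 in Viperin vs. Control (adjusted p = 2.17e-04) and by 0.22 in Viperin + Insulin vs. Insulin (adjusted p = 0.00975). The last call was lost without Insulin library 1 (adjusted p = 0.0754), Insulin library 3 (adjusted p = 0.089) or Viperin + Insulin library 3 (adjusted p = 0.0669). The Control library with the highest value was library 1, and without it the log2 fold change in Viperin vs. Control was 0.40. Another gene of the same strand (ENSG00000264187, 0 to 3 counts) shares 29% of its 50-base words. FNIP1 rose by 0.15 in Viperin vs. Control (adjusted p = 0.0486), where Viperin library 3 lay below Control library 3 and the groups overlapped. That call was lost in 17 of 22 alternatives, and without Control library 1 its log2 fold change was 0.09 (adjusted p = 0.294). Without Control library 1 and Viperin library 3 it was 0.12 (adjusted p = 0.165). The other members of the amino acid sensing group, NPRL2, RRAGA, RRAGC and RRAGD, did not pass.

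PDPK1, which encodes PDK1, the kinase that phosphorylates AKT (chr16:2537979-2603188, plus strand), stood at 47, 46.4 and 46.8 CPM in Control and at 51.2, 52.5 and 54.1 CPM in Viperin libraries. It stood at 46.5, 47.1 and 48.0 CPM in Insulin and at 50.6, 53.2 and 51 CPM in Viperin + Insulin libraries. All Viperin libraries lay above all empty vector libraries. PDPK1 rose by 0.15 in the average (SE 0.03, adjusted p = 0.00116) and by 0.17 in Viperin vs. Control (adjusted p = 0.0349). The latter call was lost when any of Control 2, Control 3, Insulin 3, Viperin 2 and Viperin 3 was left out (adjusted p up to 0.14), without Control library 1 and Viperin library 3 (adjusted p = 0.103), with limma-voom (adjusted p = 0.0504) and with only the groups compared (adjusted p = 0.115). A pseudogene (PDPK2P, 0 to 2 counts) shares 13.2% of its 50-base words.

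AKT1S1, the mTORC1 inhibitor PRAS40 (chr19:49869033-49878459, minus strand), moved the other way. It stood at 87.8, 97.9 and 111 CPM in Control and at 84.9, 83.7 and 87.3 CPM in Viperin libraries. It stood at 96.7, 103 and 101 CPM in Insulin and at 90.8, 89.9 and 88.5 CPM in Viperin + Insulin libraries. The groups did not overlap within vehicle or within insulin, but Control libraries were spread widely and library 1 lay close to the Viperin libraries. AKT1S1 fell by 0.19 in the average (SE 0.04, adjusted p = 0.00125) and by 0.22 in Viperin vs. Control (adjusted p = 0.0265). Without Control library 3 the latter was -0.12 (adjusted p = 0.162), and the call was also lost without Control library 2 (adjusted p = 0.084) and without each Viperin library (adjusted p = 0.0765 to 0.136). It was lost with only the groups compared (adjusted p = 0.0885) and in counts that ignored strand (adjusted p = 0.0514). Without Control library 1 and Viperin library 3 the log2 fold change was -0.31 (adjusted p = 7.45e-07).

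PIK3CD (chr1:9629889-9729114, plus strand) stood at 56.0, 50.1 and 50.4 CPM in Control and at 58.3, 56.4 and 61.5 CPM in Viperin libraries. It stood at 47.3, 51.8 and 52.2 CPM in Insulin and at 53.7, 56.6 and 53.1 CPM in Viperin + Insulin libraries. Viperin libraries were higher within vehicle and within insulin, and over both states they overlapped through Control library 1. PIK3CD rose by 0.14 in the average (SE 0.03, adjusted p = 0.00363) and by 0.17 in Viperin vs. Control (adjusted p = 0.0404). The latter call was lost when any of Control 2, Control 3, Insulin 3, Viperin 1 and Viperin 3 was left out (adjusted p up to 0.204), with limma-voom (adjusted p = 0.0799), with filterByExpr (adjusted p = 0.0526) and with only the groups compared (adjusted p = 0.11). Without Control library 1 and Viperin library 3 it was 0.19 (adjusted p = 0.0218). The other class I subunits PIK3CA (log2 fold change -0.04, 95% interval -0.10 to 0.02) and PIK3CB (-0.02, -0.08 to 0.04) did not pass.

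PIK3C2B, a class II PI3K, stood at 13.4, 14 and 12.6 CPM in Control and at 15.5, 15.3 and 14.4 CPM in Viperin libraries. It stood at 13.5, 13.2 and 12.7 CPM in Insulin and at 15.8, 14.6 and 14.6 CPM in Viperin + Insulin libraries. All Viperin libraries lay above all empty vector libraries. It rose by 0.19 in the average (SE 0.05, adjusted p = 0.0167), a call lost without Control library 3, Insulin library 3, Viperin library 1 or Viperin + Insulin library 1 (adjusted p up to 0.0698).

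The remaining calls were the smallest, at 0.09 on the log2 scale (SE 0.03) in the average. AKT1 stood at 141, 142 and 149 CPM in Control, 132, 141 and 139 CPM in Insulin, 128, 130 and 137 CPM in Viperin and 134, 137 and 126 CPM in Viperin + Insulin libraries. It fell by 0.09 (adjusted p = 0.0257), with groups that overlapped under insulin, and had an adjusted p of 0.138 in counts that ignored strand. AKT2 had a log2 fold change of -0.03 (95% interval -0.08 to 0.03). PIK3R4, the regulatory partner of the class III kinase PIK3C3, stood at 87.9, 82.6 and 80.7 CPM in Control, 79.2, 82.9 and 83.5 CPM in Insulin, 90.7, 88.6 and 91.1 CPM in Viperin and 85, 85.2 and 89.0 CPM in Viperin + Insulin libraries. It rose by 0.09 (adjusted p = 0.0336), with no overlap within vehicle or within insulin. RPTOR stood at 93.0, 87.4 and 89.1 CPM in Control, 92.9, 98.2 and 95 CPM in Insulin, 84.3, 80.6 and 90.3 CPM in Viperin and 87.8, 92.3 and 86.3 CPM in Viperin + Insulin libraries. It fell by 0.09 (adjusted p = 0.0421), and its groups overlapped within vehicle. FOXO3 stood at 65.5, 64.8 and 65.4 CPM in Control, 63.0, 59.5 and 66.7 CPM in Insulin, 67.6, 67.5 and 68.8 CPM in Viperin and 67.6, 69.0 and 69.9 CPM in Viperin + Insulin libraries. It rose by 0.09 (adjusted p = 0.0475), with all Viperin libraries above all empty vector libraries. With 1 library left out, the call of AKT1 was lost for 6 libraries (Control 3, Insulin 2 or 3, Viperin 1 or 2, Viperin + Insulin 3) and that of PIK3R4 for 8 (all but Control 1, Viperin 2 and Viperin + Insulin 1 and 2), with adjusted p up to 0.118 and 0.13. The call of RPTOR was lost for 7 (Control 1, Insulin 2 or 3, Viperin 1 or 2, Viperin + Insulin 1 or 3) and that of FOXO3 for 9 (all but Control 1, Control 3 and Insulin 3), with adjusted p up to 0.175 and 0.221. Over all alternatives the FOXO3 call was lost in 16 of 21, among them RLE scaling (adjusted p = 0.0607) and limma-voom (adjusted p = 0.0612). The RPTOR call was also lost with limma-voom (adjusted p = 0.0574) and the PIK3R4 call with no filter on low counts (adjusted p = 0.0555). Without Control library 1 and Viperin library 3, the log2 fold change of RPTOR was -0.10 (adjusted p = 0.0125), that of PIK3R4 0.10 (adjusted p = 0.0132) and that of FOXO3 0.09 (adjusted p = 0.0782).

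**Figure D3:**
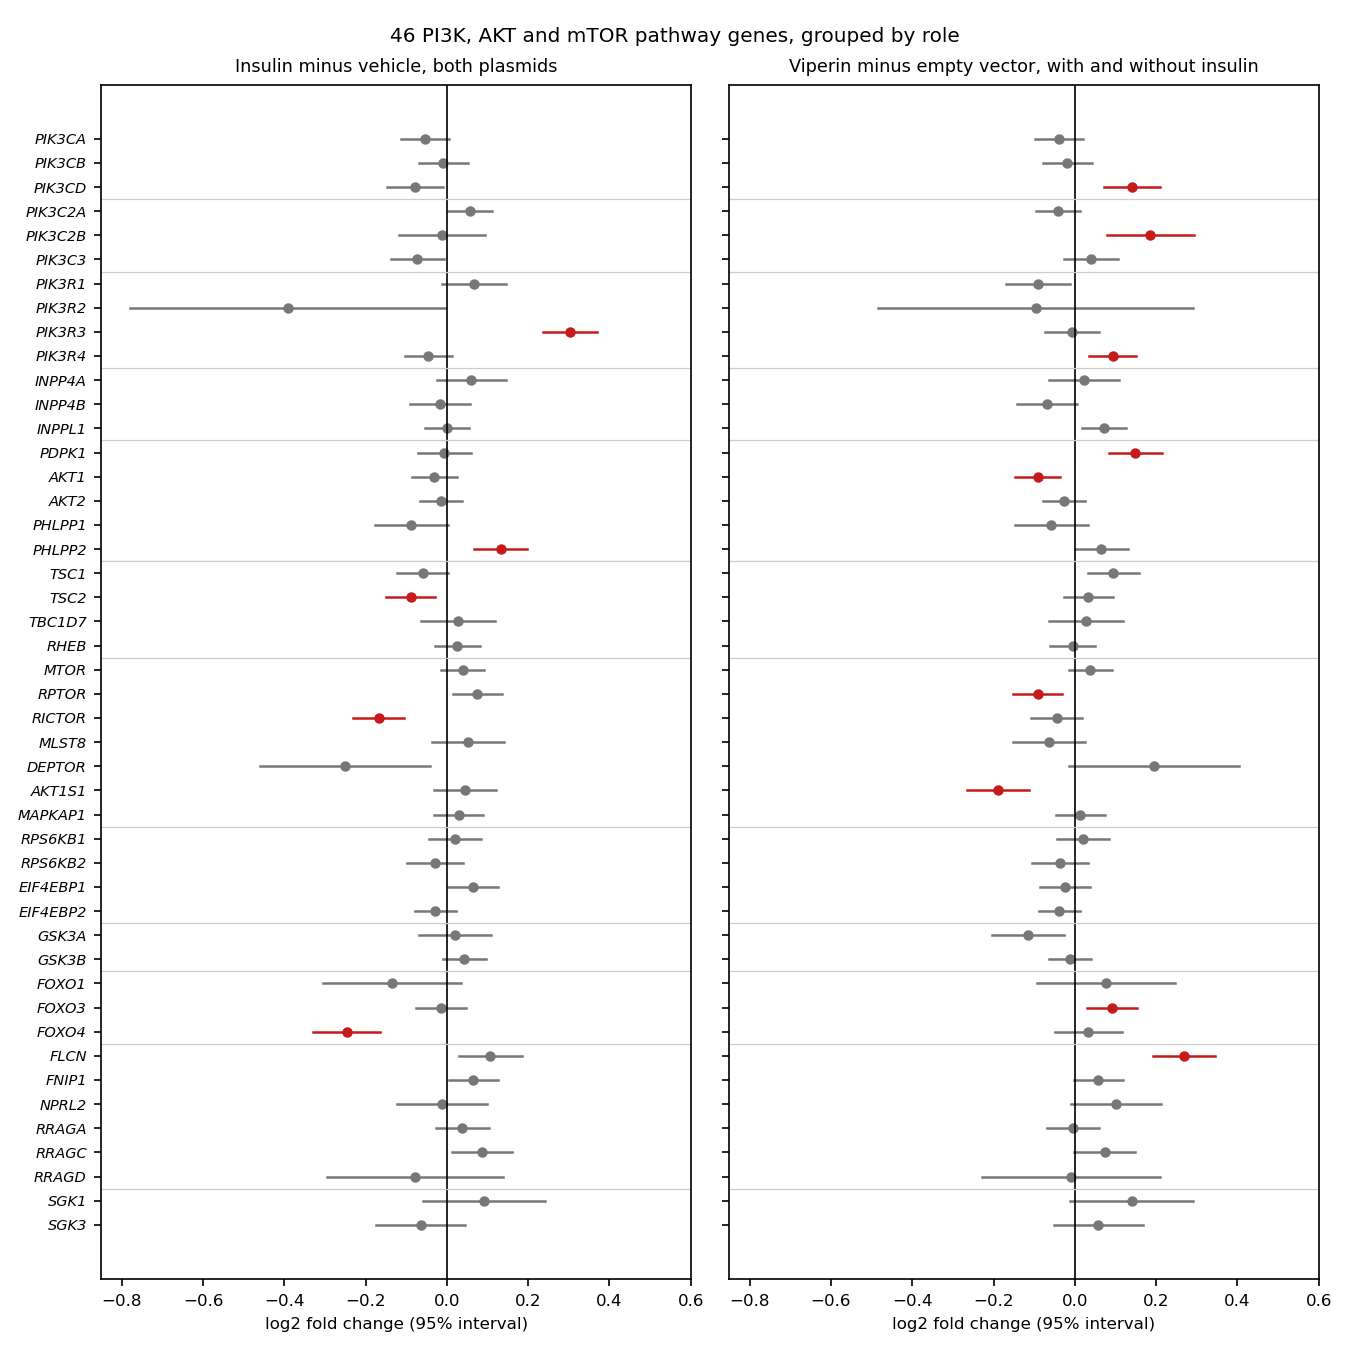
log2 fold change (x axis) with its 95% interval for each of the 46 members, ordered by role, for insulin minus vehicle averaged over both plasmids (left) and Viperin minus empty vector averaged over vehicle and insulin (right), with red for an adjusted p under 0.05. Red marks 5 members on the left, from FOXO4 at -0.25 to PIK3R3 at 0.30, and 9 on the right, from AKT1S1 at -0.19 to FLCN at 0.27.

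For the Viperin plasmid, 43 of 46 members had a 95% interval within the same 25% limits in the average, the exceptions being PIK3R2, DEPTOR and FLCN. In 4 members (FLCN, PDPK1, PIK3C2B and FOXO3) the 6 Viperin libraries did not overlap the 6 empty vector libraries, against 2.06% of all genes. The Viperin comparisons with vehicle and with insulin used separate libraries, and 34 of 46 members (73.9%) had the same sign in both, against 60.5% of all genes. Of the 23041 genes, 13662 were at or above the mean CPM of the lowest member. Shares among genes matched in level to the members were not taken.

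Whether the Viperin plasmid altered the response of the pathway genes to insulin was tested as the difference of the insulin responses. No member passed, and neither did any of the 23041 genes (0% of all genes) by edgeR. At an unadjusted p under 0.05 there was 1 member, FNIP1, by each of edgeR, DESeq2 and limma-voom, and 5.62% of all genes by edgeR. For FNIP1 the difference was -0.18 (SE 0.06, adjusted p = 0.635). The tools used the same counts, so their agreement is not independent. This difference and the FNIP1 rises in Insulin vs. Control and Viperin vs. Control share the Control libraries, of which library 1 was lowest at 85.3 CPM. The interval of the difference lay within these 25% limits for 39 of 46 members. For PIK3R3 the difference was 0.0079 (SE 0.07, adjusted p = 0.998), for RICTOR 0.02 (SE 0.06, adjusted p = 0.993) and for FOXO4 0.11 (SE 0.08, adjusted p = 0.951).

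Genes around the pathway are given from 6 further lists, each beside the share of all genes. The lists were chosen with earlier results of these data known, so their shares are descriptions and not independent tests. Among the 13662 genes at or above the mean CPM of the lowest member, 9.79% were lower and 9.5% higher in the insulin average. Of 23 tested FOXO target genes, 15 fell and 1 rose in the insulin average, against 5.97% lower and 5.76% higher of all genes, and their median log2 fold change was -0.21. YPEL3 fell from a mean of 18.1 to 10.5 CPM (log2 fold change -0.78, adjusted p = 1.37e-18), CCNG2, a cyclin of quiescent cells, by 0.38 (adjusted p = 5.84e-17), MXI1, a MYC antagonist, by 0.38 (adjusted p = 1.13e-13) and KLHL24 by 0.35 (adjusted p = 1.87e-12). Of 30 ATF4 target genes, some of which mTORC1 is known to raise, 17 rose and 0 fell (median 0.12). The smallest p was that of PSAT1, an enzyme of serine synthesis (0.41, adjusted p = 1.37e-18). SLC7A5 and SLC3A2, which form an amino acid transporter, followed (each 0.39, adjusted p = 1.6e-15 and 8.96e-15). Of 20 SREBP target genes of sterol and fatty acid synthesis, 0 rose and 6 fell (median -0.07). In Insulin vs. Control 6 of them fell (median -0.09), and in Viperin + Insulin vs. Viperin 0 passed (median -0.03). In the average, 10 of the 20 fell without Control library 1. Of 14 receptors and adaptors, 1 rose and 5 fell (median -0.13), among them IGF1R (-0.26, adjusted p = 1.6e-10), INSR (-0.37, adjusted p = 1.06e-08) and IRS2 (-0.27, adjusted p = 1.49e-08). Of 47 other regulators of PI3K, AKT and mTOR, 4 rose and 8 fell (median -0.03), with PIK3IP1, a PI3K inhibitor, at -0.69 (adjusted p = 3.08e-12) and DDIT4, an mTORC1 inhibitor, at 0.35 (adjusted p = 6.63e-12). Of 25 Rag, Ragulator, GATOR and KICSTOR genes, 2 rose and 1 fell (median 0.02), the latter being CASTOR2 (-0.26, adjusted p = 4.72e-08). INSR, IRS2, PIK3IP1, CDKN1B, SESN1, SESN2 and SESN3 stand in 2 lists each.

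**Figure D4:**
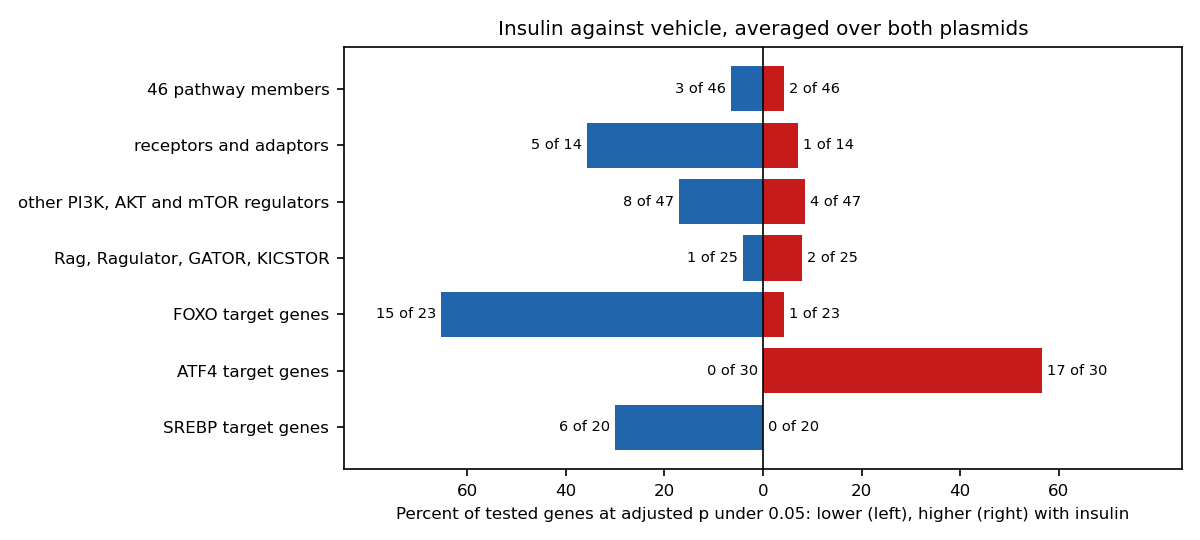
Percent of the tested genes of each list that were lower (left) or higher (right) with insulin at an adjusted p under 0.05, averaged over both plasmids, with counts beside the bars. FOXO targets reach 15 of 23 lower and ATF4 targets 17 of 30 higher, beside 3 and 2 of the 46 members. The members and lists were chosen with earlier results of these data known.

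With the Viperin plasmid in the average, 5 of the 23 FOXO targets rose and 0 fell, 3 of the 30 ATF4 targets rose and 5 fell, and 4 of the 20 SREBP targets rose and 1 fell. Of the receptors and adaptors 2 rose and 2 fell, of the other regulators 6 rose and 2 fell, and of the Rag, Ragulator, GATOR and KICSTOR genes 1 rose and 0 fell, against 4.47% higher and 3.49% lower of all genes. These counts moved with single libraries. The 8 other regulators became 3 without Insulin 3, 4 without Insulin 2 or Viperin 2, and 5 without Control 3, Viperin + Insulin 1 or Viperin + Insulin 3. The 4 receptors and adaptors became 2 without Viperin 1, and the 5 FOXO targets became 3 without Insulin 3. The 8 ATF4 targets became 5 when either Control 2, Insulin 2, Insulin 3 or Viperin + Insulin 1 was left out. In the difference of the insulin responses, 0 genes of these lists passed.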

How the data were processed

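Gene-level counts of read pairs from 12 mRNA-seq libraries were used as deposited. Per the labels and methods, the authors used cutadapt, Trim Galore and FastQC before alignment, and STAR for alignment to hg38 and for counts per gene. Tool versions were not given in the sources used here. GENCODE vM16, a mouse release, is named in the methods, while the gene IDs are human. The authors tested genes with DESeq2 and IHW at a threshold of 0.001, which was not repeated here. The reverse-strand counts were used, and rows of unmapped, multimapping, unassigned and ambiguous reads were left out. Of 60617 IDs, 60357 had a symbol in GENCODE release 44, from which coordinates (GRCh38) were taken.

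Counts were fitted with edgeR 4.0.16 (R 4.3.3) by a robust quasi-likelihood test on 4 group means over all 12 libraries, with TMM scaling, a minimum mean of 1 count per library and a prior count of 2. 7 contrasts were taken, and members were called at a Benjamini-Hochberg adjusted p under 0.05 over 23041 genes. The test was checked on simulated data. Alternatives used DESeq2 1.42.0, limma-voom 3.58.1, other scaling, filters and strand settings, fewer libraries and a replicate block. The members and the other gene lists were chosen with earlier results of these data known. Members called at adjusted p under 0.05 were described in every library, uncalled ones where their role was central, and at most 4 genes per other list, by smallest p in the insulin average. Figures were drawn with matplotlib in Python 3.11.15.

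The same replicate numbers stand in all groups, and the labels do not say that they pair. Deviations from group means correlated from -0.234 to 0.185 over 18 same-numbered pairs of libraries and from -0.246 to 0.226 over 36 others, so the numbers were not taken to pair the samples. Libraries held 25979022 to 46889002 pairs, with a median SE of 0.03 on the log2 scale for the averages, 0.05 for single comparisons and 0.07 for the difference. Replicates were compared for duplicates, and none were found.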

Additional observations from a re-analysis of the deposited data

How the results depend on the processing

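No called member changed direction under any alternative that was run, while with other scaling up to 3 uncalled members of a comparison changed sign. In the averages, PIK3R3, FOXO4, RICTOR and PHLPP2 with insulin and FLCN, AKT1S1, PDPK1 and PIK3CD with the Viperin plasmid kept an adjusted p under 0.05 in every alternative that was run. At a threshold of 0.001 the number of members that passed was 3 in the insulin average, 2 in Insulin vs. Control, 1 in Viperin + Insulin vs. Viperin, 1 in the Viperin average, 1 in Viperin vs. Control and 0 in Viperin + Insulin vs. Insulin, as a stricter threshold must lower it. The counts that follow are at an adjusted p under 0.05. In Viperin vs. Control the count was 5 in the main test, 2 with limma-voom, 3 with filterByExpr and 1 with only the groups compared. In Viperin + Insulin vs. Insulin it was 2 without a filter on low counts, 2 with the replicate block, 7 with only the groups compared and 2 without Control library 1 and Viperin library 3, an alternative chosen after seeing the data. The causes were not tested. With 1 library left out, the counts ran from 4 to 8 in the insulin average, 2 to 5 in Insulin vs. Control, 1 to 3 in Viperin + Insulin vs. Viperin, 4 to 11 in the Viperin average, 1 to 6 in Viperin vs. Control, 0 to 2 in Viperin + Insulin vs. Insulin and 0 to 0 in the difference. Under the replicate block the counts were 4 in the insulin average, 5 in Insulin vs. Control, 2 in Viperin + Insulin vs. Viperin, 4 in Viperin vs. Control and 7 in the Viperin average. It ended the calls of TSC2 in the insulin average (adjusted p = 0.0531), FOXO4 in Viperin + Insulin vs. Viperin (0.0508), FNIP1 in Viperin vs. Control (0.0503), and RPTOR (0.0512) and FOXO3 (0.0554) in the Viperin average, by edgeR with replicate numbers that were not taken to pair the samples. The SREBP target count of 6 in the insulin average was 10 with limma-voom. PIK3R2, at 16 to 38 counts per library, had the widest intervals of the members in the averages.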
